A study of Mus musculus with 8 samples.

Results

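The ATF4 integrated stress response genes described here are 10 transcripts, *Atf4*, *Atf3*, *Atf5*, *Ddit3*, *Trib3*, *Chac1*, *Asns*, *Ppp1r15a*, *Cebpb* and *Cebpg*. They were chosen by name from the pathway, with earlier results of these data known, as were the gene lists used below. They were matched by Ensembl identifier to the 55385 genes of the deposited count table. All 10 were found, and all 10 passed the filter on low counts, which left 17445 genes for testing. The RNA came from R1 mESCs, a mouse embryonic stem cell line of wild-type genotype grown without feeder cells in N2B27 medium with 2i and Lif. Cells of every group received lentivirus over 2 days and puromycin over the next 3 days, so infection and selection were common to controls and KD cells. The groups compared were 3 libraries with *Eftud2* shRNA1, 3 with *Eftud2* shRNA2 and 2 with a non-targeting hairpin (nt-shRNA). *Eftud2* encodes a GTPase of the U5 part of the spliceosome. The question addressed is how the transcripts of this stress pathway stand when the splicing machinery is perturbed by either hairpin. The libraries are labelled biological replicates of 1 cell line, with no statement of whether they came from separate infections, so the p-values measure the spread between these libraries.

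In the integrated stress response, kinases that sense different stresses phosphorylate the translation factor eIF2 alpha. Global translation then falls, while the mRNA of the bZIP transcription factor ATF4 is translated more because of upstream open reading frames in its leader. ATF4 pairs with C/EBP proteins and other bZIP factors and activates genes of amino acid supply, tRNA charging, redox balance and, when stress lasts, of cell death. The pathway closes on itself, since its targets include PPP1R15A (GADD34), which brings a phosphatase to eIF2 alpha, and TRIB3, a pseudokinase that restrains ATF4 and CHOP. Much of ATF4's control lies in translation, which an mRNA count does not measure.

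The promoters are shown first, since ATF4 dimers are known to act through a composite C/EBP-ATF element. Each member has 1 RefSeq promoter window of 300 bases on GRCm38.p6 (250 before the annotated start and 50 from it), except *Atf5* with 2. Windows were searched on both strands for the core element TGATGNAA, for a looser form TGNTGCAA that can cover the same bases, for the cAMP response element TGACGTCA and for the CCAAT box. The core was found in the windows of 4 of the 10 genes, *Atf3*, *Trib3*, *Chac1* and *Asns*, against 4.51% of all 27025 genes with a window. Stretches around a selection of the matches upstream of the start are printed 5′ to 3′ on the gene's strand, cut at the start site. The match is in capitals, and position -1 is the base before the start.
*Atf3*, core read on the opposite strand at position -110, chr1:191183415-191183464, minus strand: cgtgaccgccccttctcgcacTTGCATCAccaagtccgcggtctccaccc
*Chac1*, core read on the opposite strand at position -193, chr2:119351028-119351077, plus strand: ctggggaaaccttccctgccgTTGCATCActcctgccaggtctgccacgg
*Asns*, core at position -23, chr6:7693210-7693253, minus strand: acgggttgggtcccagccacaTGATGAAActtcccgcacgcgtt
*Trib3*, looser form at position -33, chr2:152344065-152344114, minus strand: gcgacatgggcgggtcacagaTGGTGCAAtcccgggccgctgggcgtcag
*Ppp1r15a*, cAMP response element at position -12, chr7:45526269-45526301, minus strand: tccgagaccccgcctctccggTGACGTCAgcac
*Ddit3*, CCAAT box on the opposite strand at position -77, chr10:127290695-127290741, plus strand: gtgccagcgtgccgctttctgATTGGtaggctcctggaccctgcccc
*Atf4*, CCAAT box at position -76, chr15:80255087-80255133, plus strand: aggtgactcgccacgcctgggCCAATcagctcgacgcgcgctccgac

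The *Asns* match lies where its nutrient-sensing element is known. In *Atf3* and *Chac1* the same 8 bases also match the looser form. The core match of *Trib3* lies past its start site, at chr2:152344039-152344046. The looser form was found in 3 of the 10 genes, *Atf3*, *Trib3* and *Chac1*, against 3.72% of all genes. TGACGTCA was found in *Ppp1r15a* alone among the members, against 2.03% of all genes. The CCAAT box was in 6 of 10 members, against 41.1% of all genes. These were *Atf4*, *Atf3*, *Atf5*, *Ddit3*, *Chac1* and *Cebpg*, and not all of their matches are printed. *Atf4* has a further one at position -117. The windows of *Ddit3* and *Atf4* hold none of the 3 longer letter strings, which says nothing of sites outside these windows.

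Library depth ran from 19569525 to 29871048 counts, with the nt-shRNA libraries the deepest. Members had from 69 counts (*Cebpb*) to 20850 counts (*Asns*) in a library, far above the 3 counts that mark the detection floor, and these limits cover counting error only. *Eftud2* itself was at 262 and 256 CPM (library-scaled counts, normalized by TMM) in nt-shRNA, 225 to 232 CPM in shRNA1 and 198 to 235 CPM in shRNA2. That is a log2 fold change of -0.18 for shRNA1, which did not pass the threshold (adjusted p = 0.0514, 95% interval -0.32 to -0.04), and -0.29 for shRNA2 (adjusted p = 0.00122), from edgeR. The shRNA1 difference passed without shRNA2 replicate 2 (adjusted p = 0.0415) or shRNA2 replicate 3 (0.0215), without the filter on low counts (0.03) and with only the groups compared (0.0491). By qPCR normalized to mitochondrial rRNA, the paper reports a larger fall of *Eftud2* with each hairpin than these counts show. It also reports less EFTUD2 protein on western blots. The cause of the gap between qPCR and counts was not tested. The cells carried pluripotency transcripts throughout, with a summed level of 8 markers of 4686 to 4716 CPM in nt-shRNA, 5267 to 5473 in shRNA1 and 6213 to 6307 in shRNA2. Of these markers, 1 was called lower and 4 higher with shRNA1 and 1 lower and 6 higher with shRNA2, the lower one being *Pou5f1* (OCT4), at -0.35 and -0.29 on the log2 scale (adjusted p = 3.7e-04 and 8.6e-04). Markers of the 2-cell-like state, which marks a rare fraction of such cultures, rose in 5 of 5 cases with each hairpin (13.8% and 27.2% of all tested genes were called higher, and 17.1% and 28.7% lower), from summed levels of 8.95 to 10.5 CPM to 42.1 to 57.7 CPM (shRNA1) and 32.8 to 41.2 CPM (shRNA2). Fibroblast markers summed to 4.60 to 4.95 CPM in nt-shRNA, 6.47 to 7.34 CPM in shRNA1 and 6.28 to 7.57 CPM in shRNA2, so that the KD libraries lay above the controls. Of the 3 fibroblast markers tested, 1 (*Col1a2*) was called higher with each hairpin. Germ layer and trophoblast markers summed to 12.1 to 12.2 CPM in nt-shRNA, 9.43 to 11.7 CPM in shRNA1 and 11.2 to 12.1 CPM in shRNA2, and no marker of any list was at 0 in all libraries. Primitive endoderm markers summed to 23.2 to 23.7 CPM in nt-shRNA, 22.0 to 26.0 CPM in shRNA1 and 17.5 to 19.3 CPM in shRNA2. The part of any of these cell states in the values below was not tested, and in bulk RNA fewer cells that express a gene cannot be told apart from less RNA per cell.

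In each hairpin's comparison with nt-shRNA, 6 of the 10 members fell and 0 rose at an adjusted p under 0.05 (edgeR's quasi-likelihood test, Benjamini-Hochberg over all genes tested). At an unadjusted p under 0.05, 0 rose with shRNA1 and 1 with shRNA2, and DESeq2 called 0 higher with either and 6 and 4 lower. With shRNA1 these were *Atf4*, *Ddit3*, *Trib3*, *Ppp1r15a*, *Asns* and *Cebpg*, and 17.1% of all tested genes were called lower and 13.8% higher. With shRNA2 they were *Atf4*, *Ddit3*, *Trib3*, *Ppp1r15a*, *Chac1* and *Cebpg*, and 28.7% of all tested genes were called lower and 27.2% higher. The calls of *Asns*, *Chac1* and *Cebpg* were lost in some alternatives and with single libraries left out, as given beside each gene below. Of the 10 members, 5 fell with both hairpins, against 15.1% of all tested genes, but both comparisons use the same 2 control libraries. The median log2 fold change of the members was -0.33 with shRNA1 and -0.44 with shRNA2, beside -0.01 and 0.00 for all tested genes. Without regard to a test, 7 members with shRNA1 and 6 with shRNA2 had every KD library below both control libraries, where 30.2% and 36.0% of all tested genes did. Only *Ddit3* was called more than 2-fold lower, in both comparisons, a drop shared by 1.16% of tested genes with shRNA1 and 6.79% with shRNA2. The count of 0 members higher with shRNA2 became 2 (*Atf5*, *Asns*) without shRNA2 replicate 3 and 1 (*Atf5*) without nt-shRNA replicate 1.

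**Figure D1:**
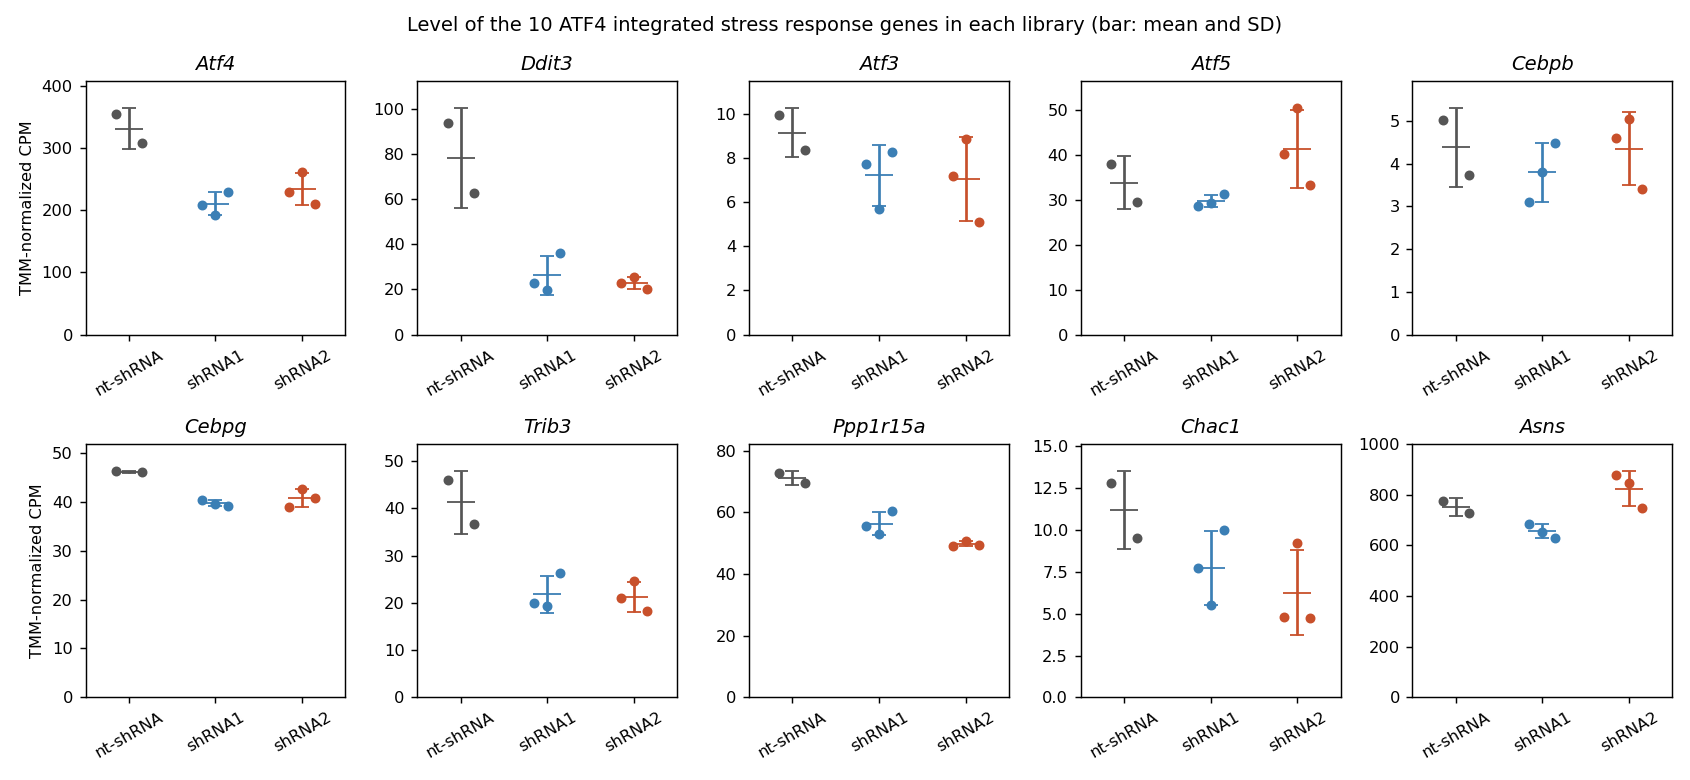
TMM-normalized CPM (y axis, from 0) of each of the 10 members in the 2 nt-shRNA, 3 shRNA1 and 3 shRNA2 libraries. Points are libraries and bars are the mean and SD; for *Ddit3* and *Trib3* both hairpins lie far below the controls, while for *Atf5* and *Asns* the shRNA2 libraries lie above the shRNA1 libraries.

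*Atf4* (chr15:80255184-80257541, plus strand) encodes the transcription factor at the centre of the pathway. The controls held 355 and 308 CPM, against 209, 192 and 229.9 CPM in shRNA1 and 229, 262 and 210.2 CPM in shRNA2. Every KD library was below both controls, and the 2 hairpins overlapped. The transcript fell to 63.6% of control with shRNA1 (log2 fold change -0.65, SE 0.0861, adjusted p = 1.6e-05) and to 70.6% with shRNA2 (-0.50, SE 0.0862, adjusted p = 6.7e-05). The call held in every alternative and with each library left out, with log2 fold changes from -0.75 to -0.52 for shRNA1 and from -0.60 to -0.33 for shRNA2.

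*Ddit3* (chr10:127290774-127296288, plus strand) encodes CHOP, the bZIP factor that ATF4 induces in lasting stress and that favours cell death. It was the member that moved furthest. Levels were 93.7 and 62.5 CPM in nt-shRNA, in the shRNA1 libraries 22.7, 19.9 and 35.9 CPM and in the shRNA2 libraries 22.7, 25.6 and 20.0 CPM. The groups did not overlap, although the controls differed widely from each other and shRNA1 replicate 3 stood above its group. *Ddit3* fell to 33.9% of control with shRNA1 (log2 fold change -1.56, SE 0.173, adjusted p = 2.5e-06) and to 29.2% with shRNA2 (-1.78, SE 0.176, adjusted p = 9.6e-08). Without nt-shRNA replicate 1 the fall was smallest, at -1.24 and -1.46, and it stayed past the threshold. Of the exon bases of *Ddit3*, 105 (6.1%) are shared with a second annotated copy on the same strand that received 0 counts, and 68 lie over *Mars* on the other strand. Fragments that fit both *Ddit3* and either of these genes were not counted.

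*Trib3* (chr2:152337422-152344032, minus strand) encodes the pseudokinase that binds ATF4 and CHOP and limits their activity. Its level was 46.0 and 36.6 CPM in nt-shRNA, 19.9, 19.3 and 26.4 CPM in shRNA1 and 21.1, 24.6 and 18.3 CPM in shRNA2. Both sets of KD libraries lay below the lower control, close to one another. The log2 fold changes were -0.91 (SE 0.129, adjusted p = 3.4e-05) and -0.95 (SE 0.13, adjusted p = 4.9e-06), so that 53.2% and 51.7% of the control level was left.

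*Ppp1r15a* (chr7:45522916-45526268, minus strand) encodes GADD34, the stress-induced subunit that directs phosphatase PP1 to eIF2 alpha. The controls were at 72.8 and 69.6 CPM, shRNA1 at 55.7, 53.0 and 60.5 CPM and shRNA2 at 49.2, 50.7 and 49.4 CPM. These 3 groups were each apart from the others, in the order nt-shRNA, shRNA1, shRNA2. The gene fell by 0.33 on the log2 scale with shRNA1 (SE 0.0699, adjusted p = 0.00126) and by 0.52 with shRNA2 (SE 0.0703, adjusted p = 4.8e-06). Its constitutive relative *Ppp1r15b*, named here for the contrast after its values were seen, had log2 fold changes of -0.07 and -0.06, neither of which passed the threshold.

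*Chac1* (chr2:119351229-119354381, plus strand) encodes an enzyme that breaks down glutathione and is a target of ATF4 and CHOP. It was a low transcript, at 12.8 and 9.51 CPM in nt-shRNA, 7.71, 5.53 and 9.98 CPM in shRNA1 and 4.79, 9.20 and 4.77 CPM in shRNA2. One library of each hairpin came near or above the lower control, shRNA1 replicate 3 and shRNA2 replicate 2. The fall with shRNA2 was called (log2 fold change -0.83, SE 0.236, adjusted p = 0.00567). With shRNA1 the log2 fold change of -0.51 was not called (adjusted p = 0.101, 95% interval -0.99 to -0.03). The shRNA2 call was lost without nt-shRNA replicate 1 (-0.60, adjusted p = 0.0917) and in DESeq2 (-0.85, adjusted p = 0.0864). The shRNA1 difference passed without shRNA1 replicate 3 (-0.75, adjusted p = 0.0301) and without shRNA2 replicate 2 (-0.50, adjusted p = 0.0328).

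*Asns* (chr6:7675169-7693254, minus strand) encodes asparagine synthetase, the classic amino acid response gene. Levels were 775 and 726 CPM in nt-shRNA, 684, 652 and 629 CPM in shRNA1 and 879, 847 and 746 CPM in shRNA2. All shRNA1 libraries were below the controls, while the shRNA2 libraries overlapped them from above. With shRNA1 the log2 fold change of -0.20 was just past the threshold (SE 0.0702, adjusted p = 0.0391), and with shRNA2 that of 0.13 was not (adjusted p = 0.114, 95% interval -0.01 to 0.28). The shRNA1 call was fragile. It was lost without shRNA1 replicate 2 (adjusted p = 0.0936), shRNA1 replicate 3 (0.0806), shRNA2 replicate 1 (0.0557), nt-shRNA replicate 1 (0.282) or nt-shRNA replicate 2 (0.0606), and with scaling by library size alone (-0.08, adjusted p = 0.361). Conversely, *Asns* was called higher with shRNA2 without shRNA2 replicate 3 (0.20, adjusted p = 0.0182) and with library size alone (0.22, adjusted p = 0.00836).

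*Atf5* (chr7:44812256-44816658, minus strand) encodes a bZIP factor that, like ATF4, is translated more under eIF2 alpha phosphorylation. It was measured at 38.0 and 29.6 CPM in nt-shRNA, 28.7, 29.2 and 31.3 CPM in shRNA1 and 40.1, 50.4 and 33.3 CPM in shRNA2. The control libraries lay on either side of the gap between the hairpins, so each hairpin overlapped them. Neither comparison with nt-shRNA was called, with log2 fold changes of -0.18 (adjusted p = 0.299, 95% interval -0.45 to 0.09) for shRNA1 and 0.29 (adjusted p = 0.0608, 95% interval 0.02 to 0.55) for shRNA2. The shRNA2 difference passed as higher without nt-shRNA replicate 1 (0.47, adjusted p = 0.0168), without shRNA2 replicate 3 (0.42, adjusted p = 0.00304) and under 6 other settings given with the alternatives. An 82-base stretch of its exons (4.1%) lies over *Nup62* on the other strand, and counting used no strand.

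*Cebpg* (chr7:35046422-35056573, minus strand) encodes a C/EBP partner of ATF4 without a strong activation domain of its own. The nt-shRNA libraries were at 46.3 and 46.0 CPM, shRNA1 at 40.4, 39.5 and 39.2 CPM and shRNA2 at 38.9, 42.6 and 40.7 CPM. All 6 KD libraries lay below both controls, by a small margin. The log2 fold changes were -0.22 (SE 0.0706, adjusted p = 0.0253) and -0.18 (SE 0.0708, adjusted p = 0.0384), the smallest of the called falls with shRNA2. With library size alone they were -0.10 and -0.09, and neither passed. The shRNA1 call was also lost without shRNA1 replicate 2 (adjusted p = 0.0778), nt-shRNA replicate 1 (0.141) or nt-shRNA replicate 2 (0.112). The shRNA2 call was lost without shRNA1 replicate 2 (0.0574), shRNA2 replicate 1 (0.16), shRNA2 replicate 3 (0.0667), nt-shRNA replicate 1 (0.143) or nt-shRNA replicate 2 (0.125).

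*Atf3* (chr1:191170296-191218039, minus strand) encodes a bZIP repressor induced by ATF4 and by many other stimuli. Its low transcript was at 9.93 and 8.36 CPM in nt-shRNA, 7.71, 5.68 and 8.27 CPM in shRNA1 and 7.21, 8.88 and 5.09 CPM in shRNA2. The shRNA1 libraries all lay below the controls, 1 of them narrowly, and shRNA2 replicate 2 reached into the control range. Neither log2 fold change was called, at -0.33 (adjusted p = 0.186, 95% interval -0.71 to 0.06) and -0.37 (adjusted p = 0.0964, 95% interval -0.76 to 0.02). Without shRNA2 replicate 2 the second became -0.57 (adjusted p = 0.0143).

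*Cebpb* (chr2:167688915-167690418, plus strand) encodes C/EBP beta, a dimer partner of ATF4 with roles in adipocytes and inflammation. It was the lowest member, at 5.02 and 3.73 CPM in nt-shRNA, 3.11, 3.80 and 4.49 CPM in shRNA1 and 4.60, 5.05 and 3.40 CPM in shRNA2. All 3 groups overlapped. The log2 fold changes were -0.19 (adjusted p = 0.501, 95% interval -0.60 to 0.23) and -0.00 (adjusted p = 0.986, 95% interval -0.42 to 0.41). A change smaller than these intervals was not detectable with these libraries. Of its exon bases, 312 (20.7%) overlap *Tmem189* on the other strand, where fragments that fit both genes were not counted.

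**Figure D2:**
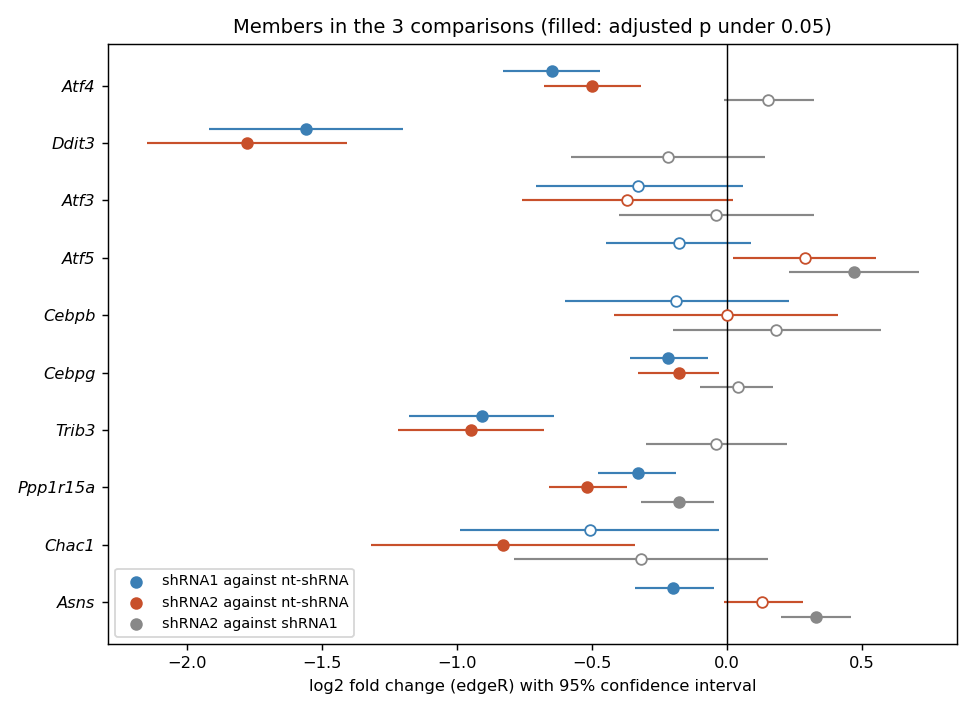
Log2 fold change (x axis) of each member in the 3 comparisons, with 95% confidence intervals from edgeR; filled points have an adjusted p under 0.05. *Ddit3* stands furthest to the left in both comparisons with nt-shRNA, at -1.56 and -1.78, and *Atf5* and *Asns* stand to the right in shRNA2 against shRNA1, at 0.47 and 0.33.

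Compared directly, the 2 hairpins differed in 3 members. *Atf5* was higher with shRNA2 than with shRNA1 by 0.47 on the log2 scale (SE 0.116, adjusted p = 0.00391) and *Asns* by 0.33 (SE 0.0632, adjusted p = 5.4e-04), and in both genes the 2 groups of 3 libraries were apart, as in 23.6% of all tested genes in this direction. *Ppp1r15a* was lower with shRNA2, at -0.18 (SE 0.0647, adjusted p = 0.0337), with its groups apart as in 24.1% of tested genes. In this comparison 16.9% of all tested genes were called higher and 18.7% lower, so 2 and 1 of 10 members are shares near the background. The *Ppp1r15a* difference was lost without shRNA1 replicate 1 (adjusted p = 0.0549), shRNA1 replicate 3 (0.14), shRNA2 replicate 1 (0.101) or shRNA2 replicate 3 (0.0615). Those of *Atf5* and *Asns* held in every alternative. With 1 library left out they ranged from 0.30 to 0.60 for *Atf5* and from 0.28 to 0.40 for *Asns*. For the members with the largest falls, *Ddit3* and *Trib3*, the difference between hairpins was -0.22 (95% interval -0.58 to 0.14) and -0.04 (95% interval -0.30 to 0.22). *Atf4* was 0.15 higher with shRNA2 (adjusted p = 0.142, 95% interval -0.01 to 0.32), and passed without shRNA2 replicate 3 (0.22, adjusted p = 0.031) and with GC content offsets (0.19, adjusted p = 0.0363). *Atf3* (-0.04, 95% interval -0.40 to 0.32), *Cebpb* (0.18, -0.20 to 0.57), *Cebpg* (0.04, -0.10 to 0.17) and *Chac1* (-0.32, -0.79 to 0.15) were not called, although *Chac1* passed without shRNA2 replicate 2 (-0.71, adjusted p = 0.0149).

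Within a group the members tended to be high or low in the same libraries. All 10 were higher in nt-shRNA replicate 1 than in nt-shRNA replicate 2, where 50.4% of all tested genes were. In shRNA1, replicate 3 held the highest value of its group for 8 members, as for 39.5% of all tested genes. In shRNA2, replicate 2 held the highest for 9 (36.8% of all tested genes) and replicate 3 the lowest for 8 (35.2%). Without nt-shRNA replicate 1, the library high in all 10 members, *Atf4*, *Ddit3*, *Trib3* and *Ppp1r15a* were called lower with both hairpins, as they were with any other library left out. Whether a difference between cultures lies behind this was not tested.

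Levels of different members were compared per kb of exon length. In nt-shRNA the order was *Asns* (275 CPM per kb), *Atf4* (140.5), *Ddit3* (45.6), *Ppp1r15a* (24.2), *Trib3* (19.4), *Atf5* (17.0), *Cebpg* (8.21), *Chac1* (6.82), *Atf3* (4.25) and *Cebpb* (2.91). Only *Trib3* and *Atf5* overlapped with their neighbour in this order, *Trib3* at 17.2 to 21.6 CPM per kb and *Atf5* at 14.9 to 19.1 CPM per kb. After KD the order changed in the middle. *Ddit3*, the third member in controls, was at 15.3 CPM per kb in shRNA1, below *Ppp1r15a* at 19.2, and at 13.3 CPM per kb in shRNA2, below both *Atf5* at 20.7 and *Ppp1r15a* at 16.9. In shRNA1 the libraries of *Ddit3* (11.6 to 21.0) and *Ppp1r15a* (18.0 to 20.6) overlapped, and in shRNA2 those of *Ddit3* (11.7 to 14.9) lay below those of *Ppp1r15a* (16.7 to 17.3). The biosynthetic enzyme and the transcription factor at the top, *Asns* and *Atf4*, and the low group from *Cebpg* to *Cebpb* kept their places by group means. After KD the libraries of *Atf3* overlapped with those of *Chac1* above it and of *Cebpb* below it. *Chac1*, *Atf3* and *Cebpb* lay in shRNA1 at 3.38 to 6.10, 2.64 to 3.84 and 2.07 to 2.99 CPM per kb and in shRNA2 at 2.92 to 5.62, 2.37 to 4.12 and 2.26 to 3.36, so that *Chac1* was apart from *Cebpb* in shRNA1 and overlapped with it in shRNA2.

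Upstream of the members are the 4 kinases of eIF2 alpha, and these did not move as 1 block. *Eif2ak1* (HRI, which senses haem lack and mitochondrial stress) was at 43.3 and 45.4 CPM in nt-shRNA, 54.4 to 58.6 CPM in shRNA1 and 60.4 to 65.7 CPM in shRNA2. It rose with both hairpins, by 0.35 (SE 0.0709, adjusted p = 9.3e-04) and 0.53 (SE 0.071, adjusted p = 4.3e-06) on the log2 scale. *Eif2ak2* (PKR, which binds double-stranded RNA) rose from 31.9 and 35.7 CPM to 42.0 to 49.2 CPM (0.40, SE 0.0885, adjusted p = 0.00197) and 40.4 to 46.8 CPM (0.35, SE 0.0887, adjusted p = 0.00269). Both calls for *Eif2ak2* were lost without nt-shRNA replicate 1 (0.32, adjusted p = 0.0556, and 0.27, adjusted p = 0.0643).

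*Eif2ak3* (PERK, the kinase of the endoplasmic reticulum) fell from 71.4 and 68.5 CPM to 59.1 to 60.8 CPM with shRNA1 (-0.22, SE 0.0653, adjusted p = 0.0166) and to 55.9 to 60.1 CPM with shRNA2 (-0.26, SE 0.0655, adjusted p = 0.00254). The shRNA1 call was lost without shRNA1 replicate 1 (adjusted p = 0.0516), nt-shRNA replicate 1 (0.164) or nt-shRNA replicate 2 (0.0542) and with library size alone (-0.10, adjusted p = 0.237). *Eif2ak4* (GCN2, which senses uncharged tRNA) was at 54.5 and 54.6 CPM in nt-shRNA, 47.9 to 48.9 CPM in shRNA1 and 38.3 to 44.1 CPM in shRNA2. Its fall was called with shRNA2 (-0.37, SE 0.0738, adjusted p = 2.7e-04), and its log2 fold change of -0.17 with shRNA1 was not (adjusted p = 0.0835, 95% interval -0.32 to -0.02) unless shRNA2 replicate 2 was left out (adjusted p = 0.0442). Between hairpins, *Eif2ak1* was higher with shRNA2 (0.17, adjusted p = 0.0357) and *Eif2ak4* lower (-0.20, adjusted p = 0.0246). The former was lost without any 1 of 6 libraries and the latter without shRNA1 replicate 1, shRNA1 replicate 2 or shRNA2 replicate 2, as listed with the alternatives.

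**Figure D3:**
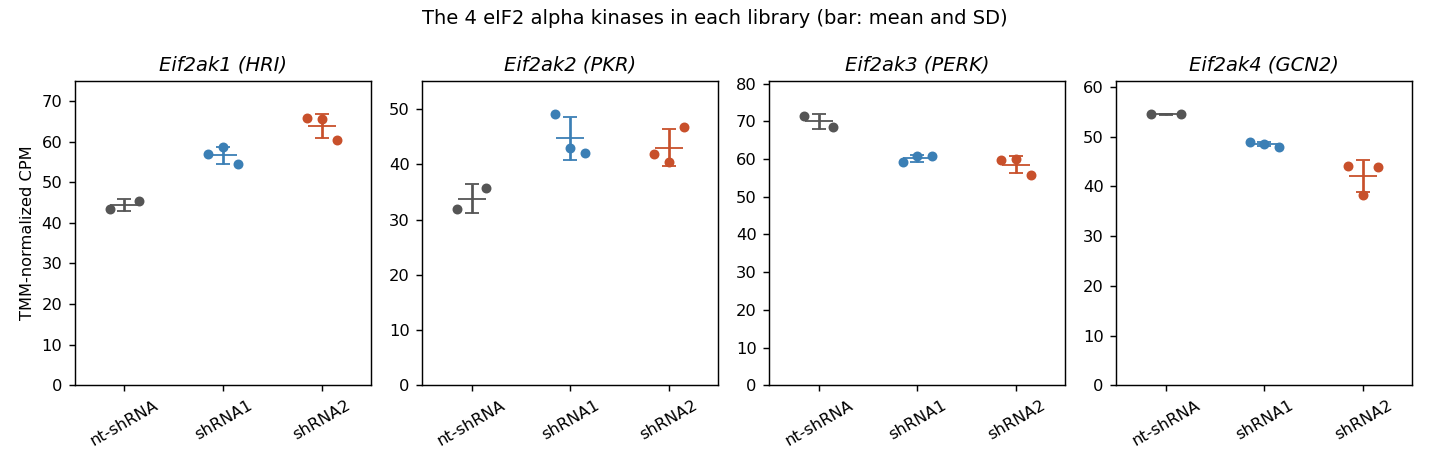
TMM-normalized CPM (y axis, from 0) of the 4 eIF2 alpha kinase transcripts in each library, with bars for the mean and SD of each group. *Eif2ak1* and *Eif2ak2* lie above the controls in every KD library, and *Eif2ak3* and *Eif2ak4* below them.

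The kinases, the eIF2 and eIF2B subunits and their regulators, 20 genes in all, were called lower in 5 cases and higher in 3 with shRNA1, and lower in 8 and higher in 6 with shRNA2. Over all tested genes 17.1% were called lower and 13.8% higher with shRNA1, and 28.7% and 27.2% with shRNA2. Their medians of -0.07 and -0.03 were close to those of all genes. With shRNA1 the lower genes numbered 3 without shRNA1 replicate 1, where 2287 of 17397 tested genes were called lower. The lower genes with shRNA1 were also fewer without nt-shRNA replicate 1. Without nt-shRNA replicate 2, the higher genes with shRNA2 were fewer. In these fits, fewer of all tested genes were called as well. *Impact*, which restrains GCN2, was at -0.01 with shRNA1 (adjusted p = 0.914) and rose by 0.28 with shRNA2 (adjusted p = 0.0021). *Dnajc3*, the chaperone P58IPK that restrains PERK and PKR, fell by 0.28 (adjusted p = 0.00406) and 0.48 (adjusted p = 8.7e-06), and *Eif2b5*, the catalytic subunit of the exchange factor, fell by 0.27 (adjusted p = 0.00131) and 0.32 (adjusted p = 1.1e-04). The *Dnajc3* call with shRNA1 was lost without nt-shRNA replicate 1 (adjusted p = 0.057) and with library size alone (-0.17, adjusted p = 0.067).

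Other known ATF4 targets were read from 4 lists of 59 genes in all, of which 58 were tested. With shRNA1, 40 of the 58 fell and 1 rose, with a median log2 fold change of -0.37. With shRNA2, 42 fell and 7 rose, with a median of -0.55. These shares can be set beside the 17.1% and 28.7% of all tested genes called lower and the 13.8% and 27.2% called higher. The lists, like the members, were chosen with earlier results of these data known. For the 3 of these lists with 0 genes higher with shRNA1, the count was also 0 at an unadjusted p under 0.05 and in DESeq2.

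Among stress effectors, 12 of 20 tested genes fell and 0 rose with shRNA1, and 14 fell and 2 rose with shRNA2 (medians -0.37 and -0.52). *Fgf21* did not pass the filter. *Ndrg1*, a hypoxia- and stress-induced gene, dropped from 48.0 and 52.6 CPM to 16.5 to 24.5 CPM (-1.34, SE 0.129, adjusted p = 4.8e-07) and 6.22 to 9.07 CPM (-2.70, SE 0.142, adjusted p = 5.6e-11). *Vegfa*, the angiogenic growth factor, dropped from 169 and 172 CPM to 75.1 to 98.9 CPM (-1.02, SE 0.105, adjusted p = 1.1e-06) and 43.3 to 59.8 CPM (-1.71, SE 0.108, adjusted p = 3.8e-10). Both genes are also well-known targets of hypoxia signalling. *Sesn2*, which restrains mTORC1 and is a target of p53 as well, went the other way with shRNA2, from 84.9 and 76.8 CPM to between 99.0 and 149.5 CPM (0.59, adjusted p = 2.1e-04), and was at -0.10 with shRNA1 (adjusted p = 0.544). *Cdsn*, encoding corneodesmosin, was low throughout and rose with shRNA2 by 0.94 (adjusted p = 3.4e-04) from 1.76 and 2.06 CPM.

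Enzymes of amino acid synthesis fell in 12 of 15 cases with shRNA1 and 13 of 15 with shRNA2, and 1 rose with each (medians -0.40 and -0.70). *Pycr1*, of proline synthesis, went from 67.2 and 62.0 CPM to 28.0 to 40.0 CPM (-0.92, SE 0.101, adjusted p = 2.0e-06) and 18.6 to 19.7 CPM (-1.74, SE 0.105, adjusted p = 2.2e-10). *Gpt2*, the mitochondrial alanine aminotransferase, fell by 0.57 (adjusted p = 7.2e-05) and 1.13 (adjusted p = 4.6e-09). The riser was *Bcat1*, the cytosolic branched-chain aminotransferase, at 0.32 (adjusted p = 0.00157) and 0.66 (adjusted p = 1.9e-07).

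Amino acid transporters fell in 6 of 10 cases with shRNA1, with 0 higher, and in 5 with shRNA2, with 3 higher (medians -0.35 and -0.40). *Slc1a4*, a carrier of neutral amino acids, fell by 0.75 (adjusted p = 8.8e-05) and 1.70 (adjusted p = 2.0e-09). *Slc3a2*, the heavy chain shared by several exchangers, fell by 0.65 (adjusted p = 2.2e-05) and 0.94 (adjusted p = 5.2e-08). *Slc38a2* (SNAT2) and *Slc43a1* rose with shRNA2, by 0.39 (adjusted p = 9.7e-04) and 0.44 (adjusted p = 0.00371), and were at -0.04 and -0.03 with shRNA1.

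The genes of tRNA charging fell in 10 of 13 cases with either hairpin, and 0 rose with shRNA1 and 1 with shRNA2 (medians -0.36 and -0.37). *Cars* fell by 0.55 (adjusted p = 7.0e-06) and 0.69 (adjusted p = 7.2e-08) and *Sars* by 0.57 (adjusted p = 3.2e-05) and 0.73 (adjusted p = 3.2e-07). *Wars*, the tryptophan enzyme, was at 0.06 with shRNA1 (adjusted p = 0.516) and rose by 0.25 with shRNA2 (adjusted p = 0.00324), a call that was lost without nt-shRNA replicate 2 (0.16, adjusted p = 0.118). Fewer of the 13 genes were called lower with shRNA1 without nt-shRNA replicate 1. Without nt-shRNA replicate 2, fewer were called higher with shRNA2. In both fits, fewer of all tested genes were called as well.

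**Figure D4:**
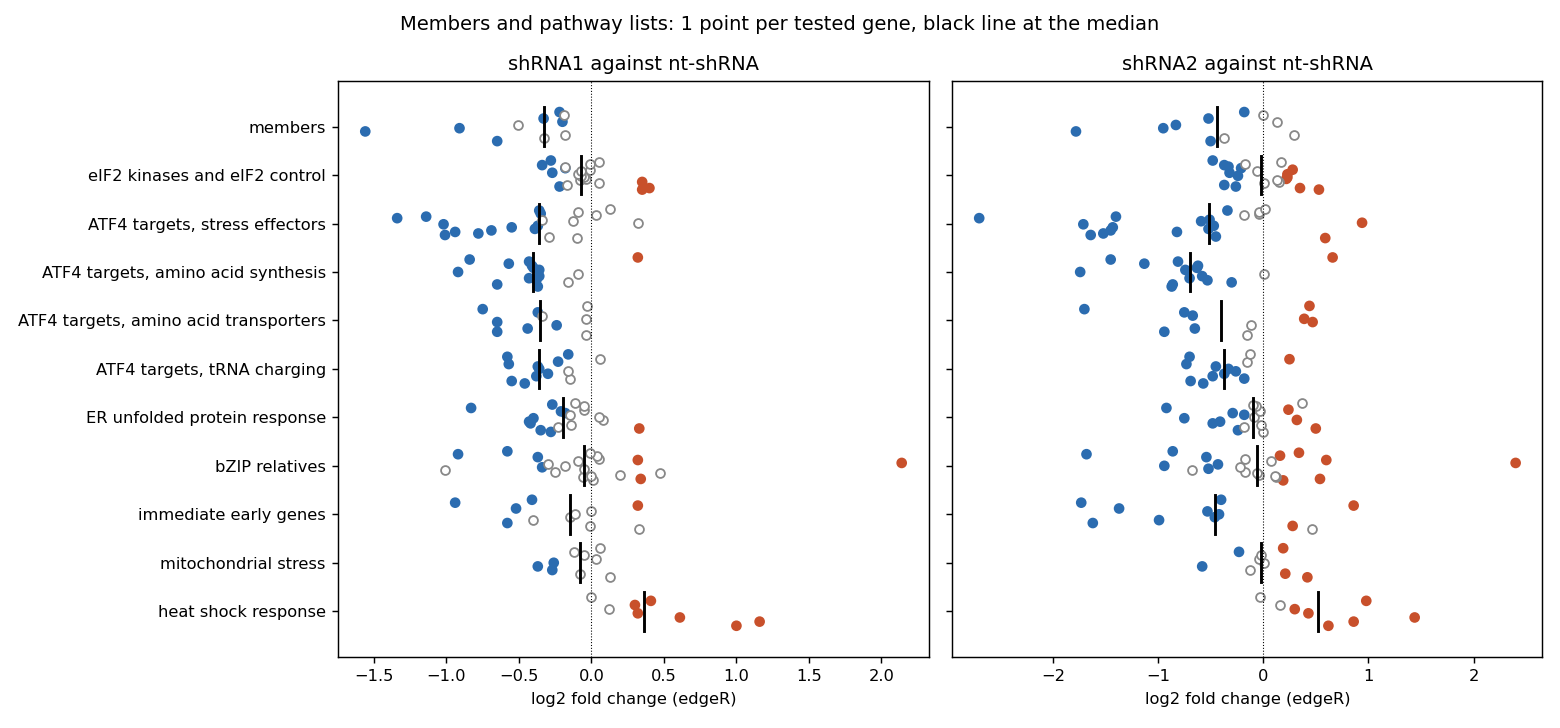
Log2 fold change (x axis) of each tested gene of the members and of 10 pathway lists (y axis), with shRNA1 on the left and shRNA2 on the right. Blue and red points are genes called lower and higher, open points are genes not called, and black lines are medians; the members and the 4 ATF4 target lists have medians from -0.33 to -0.70, and the heat shock list lies at 0.37 and 0.52.

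Neighbouring programs were read in the same way, against the 17.1% of all tested genes called lower and 13.8% called higher with shRNA1 and the 28.7% and 27.2% with shRNA2. In the ATF6 and XBP1 branches of the unfolded protein response, 9 of 18 genes fell and 1 rose with shRNA1, and 7 fell and 3 rose with shRNA2 (medians -0.19 and -0.10). Fewer of these genes fell with shRNA1 without nt-shRNA replicate 1, and fewer rose with shRNA2 without nt-shRNA replicate 2. In both fits, fewer of all tested genes were called as well. *Xbp1*, whose mRNA IRE1 splices, fell by 0.40 (adjusted p = 1.0e-04) and 0.75 (adjusted p = 1.6e-08), and the isomerase *Pdia6* by 0.42 (adjusted p = 3.7e-05) and 0.48 (adjusted p = 1.8e-06). *Dnajb9* (ERdj4) rose by 0.33 (adjusted p = 0.0172) and 0.50 (adjusted p = 3.4e-04). The shRNA1 rise was lost without shRNA1 replicate 1 (adjusted p = 0.0562), shRNA1 replicate 2 (0.0758), nt-shRNA replicate 1 (0.0703) or nt-shRNA replicate 2 (0.124), and with GC content offsets (0.0671). *Creld2*, a secreted chaperone-like protein, was at 0.08 (adjusted p = 0.483) and 0.32 (adjusted p = 0.00141, and 0.0522 without nt-shRNA replicate 2).

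Of 21 other bZIP genes, 4 were lower and 3 higher with shRNA1, where 17.1% and 13.8% of all tested genes were, and 6 lower and 6 higher with shRNA2, where 28.7% and 27.2% were. These shares are near the background. *Maff*, a small Maf protein, fell by 0.92 (adjusted p = 2.3e-05) and 1.68 (adjusted p = 5.9e-09). *Jund*, an AP-1 subunit, was at -0.18 with shRNA1 (adjusted p = 0.175, and lower without shRNA1 replicate 3 at -0.28, adjusted p = 0.0346) and fell by 0.94 with shRNA2 (adjusted p = 2.7e-07). *Atf2* and *Creb1*, factors of the cAMP response element, rose with both hairpins, *Atf2* by 0.34 (adjusted p = 5.2e-04) and 0.54 (adjusted p = 9.3e-07) and *Creb1* by 0.32 (adjusted p = 0.00933) and 0.60 (adjusted p = 1.0e-05). The *Creb1* call with shRNA1 was lost without shRNA1 replicate 2 (adjusted p = 0.0504) or nt-shRNA replicate 1 (0.146).

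Immediate early genes fell in 4 of 11 tested cases and rose in 1 with shRNA1, and fell in 8 and rose in 2 with shRNA2 (medians -0.15 and -0.46), beside 17.1% and 13.8%, and 28.7% and 27.2%, of all tested genes. Without nt-shRNA replicate 2, fewer of these genes rose with either hairpin, and so did fewer of all tested genes. *Gadd45b* fell by 0.94 (adjusted p = 4.5e-06) and 1.73 (adjusted p = 5.9e-10) and *Ier3* by 0.58 (adjusted p = 5.2e-04) and 1.62 (adjusted p = 1.7e-09). *Btg2*, an antiproliferative gene and p53 target, rose by 0.32 (adjusted p = 0.00425, and 0.107 without nt-shRNA replicate 2) and 0.86 (adjusted p = 3.3e-08). *Ier2* was at -0.01 (adjusted p = 0.916) and 0.28 (adjusted p = 0.00781, and 0.0513 without nt-shRNA replicate 2).

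Mitochondrial chaperones and proteases fell in 3 of 9 cases with shRNA1 and 0 rose, and 2 fell and 3 rose with shRNA2 (medians -0.08 and -0.02). The shares called with shRNA2 are near the 28.7% lower and 27.2% higher of all tested genes, and those with shRNA1 can be set beside 17.1% and 13.8%. The 0 held at an unadjusted p under 0.05 and in DESeq2, but 1 rose without shRNA1 replicate 3. Without nt-shRNA replicate 1, fewer of these genes fell with either hairpin. Without nt-shRNA replicate 2, fewer rose with shRNA2. In these fits, fewer of all tested genes were called as well. The protease gene *Lonp1*, itself a known ATF4 target, fell by 0.37 (adjusted p = 4.3e-04) and 0.58 (adjusted p = 7.5e-07). The chaperonin *Hspd1* and its partner *Hspe1* rose with shRNA2 by 0.42 (adjusted p = 1.0e-04) and 0.21 (adjusted p = 0.0144), and *Afg3l2* fell by 0.23 (adjusted p = 0.00246). The call of *Hspe1* was lost without shRNA2 replicate 2 (adjusted p = 0.0539) or nt-shRNA replicate 2 (0.213) and with GC content offsets (0.0541), and that of *Afg3l2* without nt-shRNA replicate 1 (0.0584). With shRNA1 they were at 0.13, -0.08 and -0.12, none of them called in the fit over all libraries. *Hspd1* passed as higher with shRNA1 without shRNA1 replicate 3 (0.21, adjusted p = 0.0141) and with library size alone (0.25, adjusted p = 0.0143), and *Afg3l2* as lower with GC content offsets (-0.15, adjusted p = 0.026).

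The listed heat shock genes, chosen as targets of HSF1 and not of ATF4, mostly moved the other way from the members. Of 8 genes, 6 rose with each hairpin (13.8% and 27.2% of all tested genes did) and 0 fell, also at an unadjusted p under 0.05 in edgeR and in DESeq2 (medians 0.37 and 0.52). *Hsph1* rose by 0.61 (SE 0.0991, adjusted p = 1.2e-04) and 1.44 (SE 0.101, adjusted p = 1.4e-09), and *Hspa8*, the constitutive HSC70, rose from 1046 and 1020 CPM to between 1233 and 1461 CPM (0.41, adjusted p = 0.00187) and between 1733 and 2235 CPM (0.98, adjusted p = 5.3e-08).

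Among the genes whose profile over the 8 libraries was nearest to that of *Atf4*, by the root mean square difference of centred log2 CPM values, were *Serpinh1* (0.072), *Slc20a1* (0.074), *Eya1* (0.074) and *Pdxp* (0.081). *Serpinh1* encodes the collagen chaperone HSP47, *Slc20a1* a phosphate carrier, *Eya1* a transcriptional coactivator and phosphatase, and *Pdxp* a pyridoxal phosphatase. None of these 4 is a member or on the target lists, and *Serpinh1* was not on the heat shock list. *Serpinh1* was at 98.8 and 95.9 CPM in nt-shRNA, 56.2 to 71.4 CPM in shRNA1 and 60.1 to 78.5 CPM in shRNA2, and, as in *Atf4*, its highest KD library was shRNA2 replicate 2. As these genes were chosen for likeness to *Atf4*, their falls are a description only, from -0.70 to -0.54 on the log2 scale with shRNA1 and from -0.62 to -0.49 with shRNA2. Without nt-shRNA replicate 1, *Pdxp* was not called with shRNA1 (-0.40, adjusted p = 0.113) or shRNA2 (-0.35, adjusted p = 0.0969).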

How the data were processed

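RNA-seq counts of R1 mESCs were analysed for 8 libraries (3 shRNA1, 3 shRNA2, 2 nt-shRNA). The authors sequenced poly(A)-selected RNA as paired reads, aligned them with STAR to mm10 and deposited raw fragment counts per gene, made per the file headers with featureCounts 1.6.2 on exons of GENCODE M24, without a strand setting and without normalization. The deposited gene length, another unit in bases, was used only for levels per kb. Names came from GENCODE M21 (55144 of 55385 identifiers matched) and promoter sequences from RefSeq (GRCm38.p6). No sample column was left out.

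Genes passing filterByExpr of edgeR 4.0.16 (minimum count 10; 17445 genes) were scaled by TMM (factors 0.935 to 1.036) and tested with glmQLFit and glmQLFTest in R 4.3.3, in 1 fit over all libraries with a term per group and no block. Calls had a Benjamini-Hochberg adjusted p-value under 0.05 over all genes tested. Standard errors came from the F statistic. The study used DESeq2. CPM values are TMM-normalized, and log2 profiles used a prior count of 2. The biological coefficient of variation was 0.0638. On simulated counts for shRNA2 against nt-shRNA (17100 genes), 63 of 63 genes changed 2-fold and 46 of 54 changed by 0.5 on the log2 scale were recovered at 5 CPM or more. Over all levels these were 82 of 96 and 52 of 99. The simulation gave every gene the same spread and changed few genes, so it does not show recovery for genes with a wider spread. Within groups, pairs of libraries differed by chi-square statistics of 3.04 to 11.63 per gene, above sampling noise, so all libraries were kept.

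The members and lists were chosen with earlier results of these data known. Besides the members, the genes named are the 4 kinases, per list the 2 genes called higher and the 2 called lower that ranked first by adjusted p-value in shRNA2 against nt-shRNA, the 5 genes nearest to *Atf4* (1 is not reported here), and *Eftud2*; *Ppp1r15b*, *Col1a2* and *Pou5f1* were added after their values were seen. Alternatives were DESeq2 1.42.0, edgeR with DESeq2 size factors or with library size alone, a filter of 10 counts in all libraries or none, fits of only the groups compared, a block for the replicate number, each library left out, and CPM without length, and, added after the data were seen, GC content offsets without and with that block. Figures were drawn with matplotlib 3.10.9.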

Additional observations from a re-analysis of the deposited data

Results flagged for a closer look

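Among the 10 members and 4 kinases, 5 transcripts differed between the 2 hairpins, which target the same gene, in a direct test (edgeR, shRNA2 against shRNA1), where 16.9% of all tested genes were called higher and 18.7% lower. The share of 5 in 14 is near this background. Among the members, *Atf5* differed by 0.47 and *Asns* by 0.33 on the log2 scale, both higher with shRNA2, and *Ppp1r15a* by -0.18, lower with shRNA2. In all 3 genes each shRNA2 library lay on the same side of every shRNA1 library. Among the kinases, *Eif2ak1* differed by 0.17 and *Eif2ak4* by -0.20, again with the 2 groups apart. The calls of *Ppp1r15a*, *Eif2ak1* and *Eif2ak4* were each lost when single libraries were left out, and those of *Atf5* and *Asns* were not.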

How the results depend on the processing

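Calls for *Atf4*, *Ddit3*, *Trib3* and *Ppp1r15a* against nt-shRNA held with both hairpins in all 9 whole-data alternatives and all 8 fits that left out 1 library. The causes of the changes below were not tested. Beyond the settings named beside each gene, *Asns* with shRNA1 was not called with at least 10 counts in every library (adjusted p = 0.086), with only the groups compared (0.0552) or with the replicate block (0.0858), and *Cebpg* without the filter (0.0545 with shRNA1, 0.0603 with shRNA2) or, with shRNA2, in DESeq2 (0.0503), with at least 10 counts (0.0672) or with the replicate block (0.0507). *Atf5* passed as higher with shRNA2 in 6 whole-data alternatives (1.3e-04 to 0.0451), and without the filter *Atf3* with shRNA2 (0.0279) and *Chac1* with shRNA1 (0.00305) passed as lower, *Chac1* also with only the groups compared (0.044).

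With library size as the only scaling, the median of all genes shifted by 0.11 with shRNA1 and by 0.09 with shRNA2 on the log2 scale, and relative to that shift the members' medians of -0.22 and -0.35 were little changed. It called 1713 genes lower and 4101 higher with shRNA1 (70.5% of calls higher, against 44.7%). Under it 2 members (*Atf5*, *Asns*) were higher with shRNA2, and with shRNA1 the genes called lower were 2 for eIF2 control, 5 for the unfolded protein response and 1 for mitochondrial stress, and 1 gene rose in each of tRNA charging and mitochondrial stress. Log2 fold changes that turned positive under it were 0.09 for *Cebpb* (shRNA2) and, with shRNA1, 0.10 for *Impact*, 0.02 for *Sesn2*, 0.08 for *Slc38a2*, 0.08 for *Slc43a1*, 0.10 for *Ier2* and 0.03 for *Hspe1*.

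Without the filter, 1 member (*Atf5*) was higher with shRNA2 and 2 (*Ppp1r15a*, *Ddit3*) were lower in shRNA2 against shRNA1. With at least 10 counts in every library, 1 member (*Atf5*) was higher with shRNA2, *Cebpb* was at 0.02 there, and with shRNA1 *Impact* was at 0.02, *Slc43a1* at 0.00 and *Ier2* at 0.02. With only the groups compared, *Impact* and *Ier2* were at 0.01 with shRNA1. In nt-shRNA, levels without division by length changed the order only of *Cebpg*, which stood above *Trib3* and *Atf5*. After KD, mean CPM put *Cebpg* above *Ddit3* and *Trib3* with both hairpins, and other members changed places too. With shRNA1, *Atf5* (29.8 CPM) stood above *Ddit3* (26.2 CPM). With shRNA2, *Ppp1r15a* (49.8 CPM) stood above *Atf5* (41.3 CPM), and *Atf3* (7.06 CPM) above *Chac1* (6.25 CPM).

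GC content offsets gave 1 member (*Atf5*) higher with shRNA2, 0 unfolded protein response genes higher with shRNA1, 0.03 for *Trib3* (shRNA2 against shRNA1), 0.18 for *Cebpb* (shRNA2) and, with shRNA1, 0.04 for *Sesn2*, 0.02 for *Slc43a1* and 0.13 for *Ier2*. With the replicate block added to these offsets, 1 member was higher with shRNA2, 7 immediate early genes were lower and 2 unfolded protein response genes higher with shRNA1, *Trib3* was at 0.03 (shRNA2 against shRNA1), *Cebpb* at 0.24 (shRNA2) and, with shRNA1, *Atf5* was at 0.06, *Cebpb* at 0.02, *Sesn2* at 0.13 and *Ier2* at 0.13.

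The libraries were not treated as paired by replicate number, since r between the deviations of libraries with the same number was only -0.026 to 0.074 over genes. This does not settle whether libraries with the same number shared an infection. In its qPCR the study compared each KD replicate with the nt-shRNA replicate that corresponded to it. With the replicate block, 2 members (*Atf5*, *Asns*) were higher with shRNA2, 1 mitochondrial stress gene was higher with shRNA1, *Cebpb* was at 0.01 (shRNA2), and *Impact* and *Slc38a2* were at 0.03 (shRNA1). With shRNA1, *Eftud2* (-0.21, adjusted p = 0.0206) and *Jund* (-0.27, 0.00658) passed as lower and *Hspd1* (0.19, 0.0352) as higher under this block, and *Afg3l2* (-0.17, 0.0195) as lower under it with GC content offsets, a setting in which *Pdxp* was not called with shRNA2 (-0.29, 0.0504). Under the replicate block alone 3324 genes were lower and 2694 higher with shRNA1, and 5136 lower and 4898 higher with shRNA2.

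Leaving out each library in turn gave 1700 to 3254 genes lower and 1248 to 2649 higher with shRNA1, the fewest without nt-shRNA replicate 1. Members called higher with shRNA2 ranged from 0 to 2, and members called lower in shRNA2 against shRNA1 from 0 to 2. With shRNA1 the lists ranged as follows for lower genes: tRNA charging 6 to 11, unfolded protein response 5 to 9, eIF2 control 2 to 7 and mitochondrial stress 1 to 3; for higher genes, unfolded protein response, immediate early genes and mitochondrial stress each 0 to 1. With shRNA2, higher genes ranged from 0 to 1 for tRNA charging, 1 to 3 for the unfolded protein response, 3 to 6 for eIF2 control, 1 to 2 for immediate early genes and 1 to 3 for mitochondrial stress, whose lower genes ranged from 1 to 3. Log2 fold changes that changed sign ranged, with shRNA1, from -0.35 to 0.01 for *Atf5*, -0.39 to 0.04 for *Cebpb*, -0.00 to 0.16 for *Creld2*, -0.05 to 0.05 for *Ier2*, -0.06 to 0.06 for *Impact*, -0.10 to 0.01 for *Slc38a2*, -0.08 to 0.01 for *Slc43a1* and -0.02 to 0.14 for *Wars*. With shRNA2 *Cebpb* ranged from -0.21 to 0.22. In shRNA2 against shRNA1 the ranges were -0.24 to 0.15 for *Atf3*, -0.37 to 0.09 for *Ddit3*, -0.16 to 0.12 for *Trib3*, -0.12 to 0.02 for *Eif2ak2* and -0.04 to 0.18 for *Pdxp*. *Eif2ak1* in that comparison lost its call without shRNA1 replicate 1 or 3, shRNA2 replicate 1 or 2, or either nt-shRNA library (adjusted p from 0.0526 to 0.133) and in 4 whole-data alternatives (0.0507 to 0.123), and *Eif2ak4* without shRNA1 replicate 1 or 2 or shRNA2 replicate 2 (0.0607 to 0.128).

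The members with the fewest counts in a library were *Cebpb*, *Atf3* and *Chac1*, with as few as 69, 111 and 103, and their standard errors were the largest of the members in both comparisons with nt-shRNA.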
